A study of Mus musculus with 6 samples.

Results

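Mesothelial and simple-epithelial marker genes were followed in sorted stromal cells of mouse epididymal fat. The set holds 9 genes, taken by name: Msln, Upk1b, Upk3b, Nkain4 and Lrrn4, which mark mesothelium, and the keratin genes Krt7, Krt8, Krt18 and Krt19. All 9 genes had at least 1 probe on the bead array, with 13 of the 45281 probes between them. The 6 arrays were hybridised with RNA of stromal vascular cells (the tissue less its adipocytes) from the epididymal fat of Zfp423-GFP reporter males, 5 weeks old. In both groups the cells had been sorted as PDGFRβ positive and lacking the lineage proteins CD31 and CD45, and GFP fluorescence then divided them into 3 GFP-positive and 3 GFP-negative samples. The labels call the replicates biological and do not state how many mice went into a sample, nor how closely GFP follows the Zfp423 protein. The titles open with the letters RG (GFP-positive replicates 1 and 2, GFP-negative replicate 1) or KM (GFP-positive replicate 3, GFP-negative replicates 2 and 3), and the labels do not say what the letters stand for.

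The mesothelium is the sheet of flat cells that lines the body cavities and covers visceral organs, including the epididymal fat pad. It is of mesodermal origin but carries epithelial traits: a keratin cytoskeleton, junctions and a set of surface proteins such as mesothelin. Keratins form filaments only as pairs of a type I and a type II chain, and in simple epithelia and mesothelium these are mainly keratins 8 and 18, with 7 and 19.

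A probe was called detected where its detection p-value, which sets it against the negative control beads of its array, was under 0.01, which held for 13068 to 14026 probes an array. Detection began at raw signals between 188.3 and 221.9, depending on the array. Normalized values are background-corrected, quantile-normalized and on the log2 scale. A test was run for probes detected on at least 3 of the 6 arrays, which 5 of the 13 probes and 4 of the 9 genes met: Msln, Upk1b, Upk3b and Nkain4. Nkain4 met it through the GFP-positive arrays alone, so that it could be tested only by being higher there.

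Transcripts of Msln, Upk1b and Upk3b were detected on all 6 arrays, those of Nkain4 on the GFP-positive arrays, those of Krt7 and Krt8 on 1 array, and those of Lrrn4, Krt18 and Krt19 on none. Of the 4 tested genes, limma called 1 higher in GFP-positive cells, Nkain4, and 0 lower at an adjusted p under 0.05; at an unadjusted p under 0.05 it was likewise Nkain4 alone. Of all 8819 genes tested, 8.65% were called higher and 7.17% lower, and 15.1% and 15.7% had an unadjusted p under 0.05 in these directions. Since Nkain4 entered the test only through the group in which it was high, the count of 1 says nothing of the set. The median difference was 0.79 over the 4 genes, also with Nkain4 at its lower bound, and -0.02 over all genes (log2, GFP-positive minus GFP-negative). This median includes Nkain4 and is a description only. Msln, Upk1b and Upk3b differed by 0.75, 0.84 and 0.38, and none of them passed. Without GFP-positive replicate 1 these differences were 0.44, 0.25 and -0.13.

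Nkain4 encodes a small membrane protein of a family that binds the sodium pump. Its probe (ILMN_1242188) read 7.51, 7.58 and 6.85 on GFP-positive replicates 1 to 3 and 5.66, 5.22 and 5.24 on GFP-negative replicates 1 to 3 (log2). Every GFP-positive array lay above every GFP-negative array, and none of the GFP-negative arrays detected it. The raw signals were 315.3, 335.0 and 260.5 against 178.5, 153.3 and 156.5. Against the detection limit of the GFP-negative arrays, Nkain4 was at least 2.18-fold higher in GFP-positive cells (fitted log2 difference 1.94 ± 0.23 SE, 3 against 3 arrays, limma adjusted p = 0.00222; exact permutation p = 0.1, 2-sided, the smallest that 3 against 3 arrays allow). The bound sets the mean of the GFP-positive arrays against the lowest detected value of each GFP-negative array. The fitted difference is set against values not above background and is no measure of the size, and without background correction it was 0.74 (limma adjusted p = 0.0025). Groups without overlap in this direction were seen for 17.7% of all genes tested, and for 1 of the 4 genes here. The difference was 1.89 (log2) among the RG arrays and 1.62 among those titled KM, again against background. Each rests on 1 array in 1 of the groups and is given with no p-value.

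Msln encodes mesothelin, a surface protein anchored in the membrane by a lipid. Its probe (ILMN_1231379) was detected on all 6 arrays and read 8.17, 7.69 and 6.81 on the GFP-positive arrays, with 6.85, 6.99 and 6.56 on the GFP-negative arrays, in log2 units. GFP-positive replicates 1 and 2 lay above all other arrays, and GFP-positive replicate 3 fell among the GFP-negative ones. The difference of 0.75 ± 0.33 (SE, 95% interval -0.03 to 1.53) did not pass (limma adjusted p = 0.178; exact permutation p = 0.3). It rose to 1.12 and passed without GFP-positive replicate 3 (limma adjusted p = 0.0221), and was 0.44 without GFP-positive replicate 1. It was 0.40 without background correction.

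Upk1b encodes a tetraspanin best known from the plaques of the bladder lining. Of its 2 probes, ILMN_2936646 was detected on all 6 arrays and ILMN_2519577 on none. The detected probe read 10.28, 9.38 and 7.66 on the GFP-positive arrays, with 8.48, 8.35 and 7.97 on the GFP-negative arrays, in log2 units, with raw signals from 351.6 to 1368.2. The GFP-positive group held both the highest and the lowest array, with an SD of 1.33 against 0.27 in the GFP-negative group (n = 3 each). The highest array was 6.13-fold above the lowest. The group difference of 0.84 ± 0.60 (SE, 95% interval -0.59 to 2.27) was within this spread (limma adjusted p = 0.395; exact permutation p = 0.4). Without GFP-positive replicate 3 it was 1.56 and passed (limma adjusted p = 0.0256), and without GFP-positive replicate 1 it was 0.25.

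Upk3b encodes a uroplakin that is a marker of mesothelial cells. Of its 3 probes, ILMN_2941714 and ILMN_2941712 were detected on all 6 arrays and ILMN_2941715 on none. The brighter probe, ILMN_2941714, read 9.76, 8.73 and 7.78 on the GFP-positive arrays, with 8.53, 8.28 and 8.33 on the GFP-negative arrays, in log2 units. ILMN_2941712 read 9.05, 8.13 and 7.13 against 7.90, 7.76 and 7.79. Both probes ranked GFP-positive replicate 1 highest and GFP-positive replicate 3 lowest, with the 3 GFP-negative arrays close together between them. The SD of the brighter probe was 0.99 in the GFP-positive and 0.13 in the GFP-negative group (n = 3 each). Differences of 0.38 ± 0.45 and 0.29 ± 0.43 (SE) were smaller than that spread (limma adjusted p = 0.620 and 0.700; exact permutation p = 0.7 for each). Without GFP-positive replicate 1 the difference of the brighter probe turned to -0.13, and without GFP-positive replicate 3 it was 0.86.

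**Figure D1:**
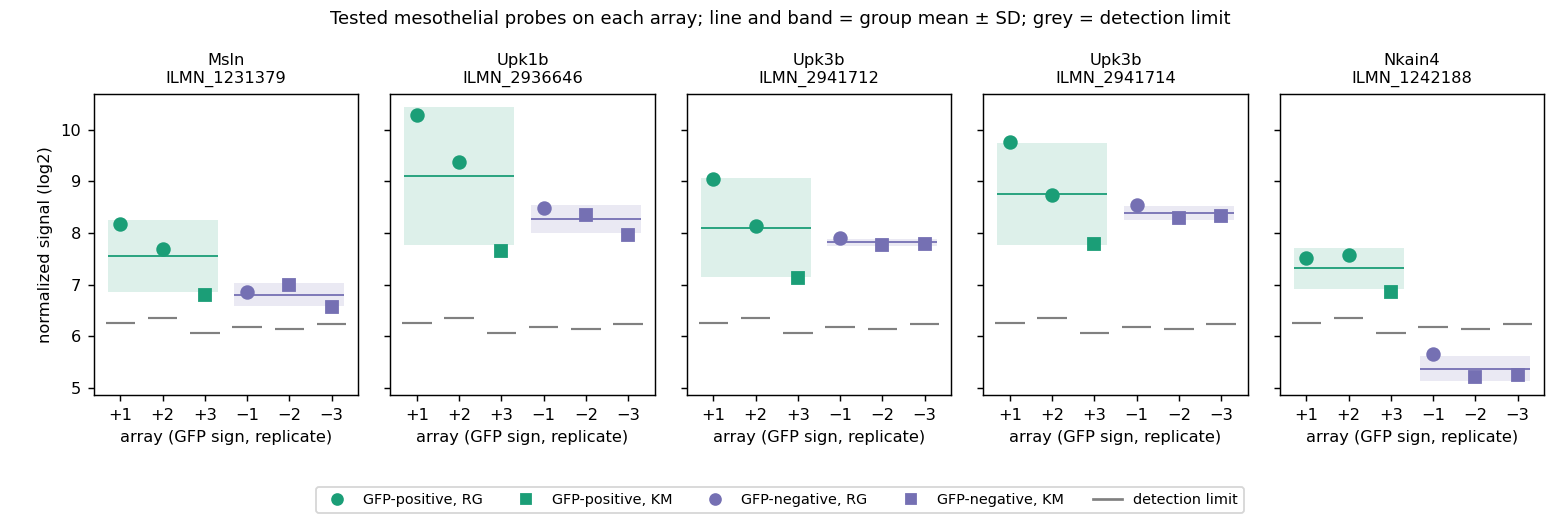
Normalized signal (log2) of the 5 tested probes on each array, labelled by GFP sign and replicate number; circles are RG and squares KM arrays, coloured lines and bands the group mean ± SD (n = 3), grey dashes the array's detection limit. Nkain4 separates the groups, from 6.85 upward in GFP-positive and from 5.66 downward in GFP-negative arrays, while for Upk1b and both Upk3b probes the GFP-positive arrays span the range of the GFP-negative ones.

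Lrrn4 encodes a leucine-rich repeat membrane protein used as a mesothelial marker. Its probe (ILMN_2608166) was detected on none of the 6 arrays. Raw signals ran from 135.4 to 165.7, and the lowest detection p-value was 0.119, on GFP-positive replicate 1. With this probe the gene had only an upper bound, the detection limit of each array.

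No keratin probe of the set was above the detection limit on more than 1 array. Krt7, a type II keratin of ductal and mesothelial cells, had raw signals of 238.4, 195.1 and 170.3 on the GFP-positive and 186.1, 185.8 and 172.5 on the GFP-negative arrays. Of these only GFP-positive replicate 1 was detected, at 113.5% of its array's detection limit. GFP-negative replicate 2 came next, at 98.7% of its limit. Krt8, the type II partner of Krt18, has 2 probes. ILMN_1221157 had raw signals of 220.1, 190.6 and 165.8 against 179.2, 177.0 and 162.8 and was also detected on GFP-positive replicate 1 alone, at 104.8% of the limit. The other, ILMN_1229241, was not detected on any array (143.3 to 161.2).

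The type I partners were not detected on any array. Krt18 (ILMN_2711267) ran from 129.9 to 150.3 in raw signal, with a lowest detection p-value of 0.297. Krt19 (ILMN_2614462) ran from 139.2 to 176.7, with a lowest detection p-value of 0.0716 on GFP-positive replicate 1. Krt18 is the neighbour of Krt8 among protein-coding genes on mouse chromosome 15 (assembly GRCm38.p6). The type II gene of this pair gave a signal on 1 array through 1 of its 2 probes, and the type I gene on none. These probes say nothing of the level below the detection limit. With no filter on dim probes, the fitted log2 differences of the 5 untested genes ran from -0.01 (Krt18) to 0.15 (Krt19), with limma adjusted p from 0.818 to 0.978. All rest on background, apart from the values of Krt7 and Krt8 on GFP-positive replicate 1. With detection p under 0.05 on at least 3 arrays as the filter, Krt7 and Krt8 joined the test, 6 members in all. The members called higher stayed at 1, Nkain4.

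**Figure D2:**
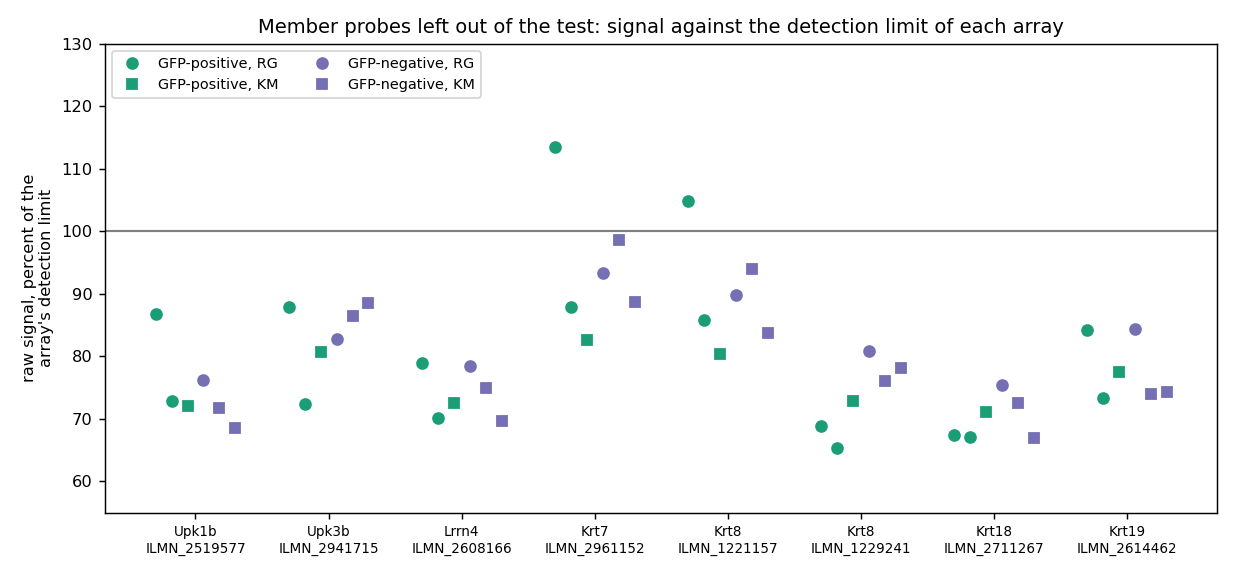
Raw signal of the 8 member probes left out of the test, as a percentage of the detection limit of the same array (grey line); green is GFP-positive, purple GFP-negative, circles RG and squares KM. Krt7 (113.5%) and 1 Krt8 probe (104.8%) cross the line on GFP-positive replicate 1, and every other point is below it.

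Krt7 and 1 of the 2 Krt8 probes ranked the arrays at both ends as the uroplakin-family genes did, though only GFP-positive replicate 1 was detected. Promoter sequences of those genes with an entry are shown because they shared that pattern, which for the keratins rests in part on background. Normalized values of Krt7 were 6.71, 5.79 and 5.28 on the GFP-positive arrays, with 5.86, 6.09 and 5.70 on the GFP-negative arrays, in log2 units, undetected arrays included. Those of Krt8 (ILMN_1221157) were 6.43, 5.69 and 5.18 against 5.67, 5.87 and 5.42. The other Krt8 probe, ILMN_1229241, not detected on any array, was highest on GFP-negative replicate 1 (5.20) and lowest on GFP-positive replicate 2 (4.76). As for Upk1b and Upk3b, GFP-positive replicate 1 was the highest array for Krt7 and ILMN_1221157 and GFP-positive replicate 3 the lowest, the latter not detected. That order of extremes, singled out after the values were seen, held for 2.48% of all genes tested and for 2 of the 4 tested genes of the set. Nkain4 instead was highest on GFP-positive replicate 2. The 300 bases around the gene starts (250 before and 50 after, RefSeq, GRCm38.p6) are chr5:136038246-136038545, plus strand, for Upk3b, chr15:101412153-101412452, plus strand, for Krt7, and chr15:102004293-102004592, minus strand, for Krt8. They are written 5′ to 3′ on the gene's strand, with capitals for matches on either strand to the TATA box TATAAA, the GC box GGGCGG, the AP-2 site GCCNNNGGC and the AP-1 site TGANTCA.
Upk3b: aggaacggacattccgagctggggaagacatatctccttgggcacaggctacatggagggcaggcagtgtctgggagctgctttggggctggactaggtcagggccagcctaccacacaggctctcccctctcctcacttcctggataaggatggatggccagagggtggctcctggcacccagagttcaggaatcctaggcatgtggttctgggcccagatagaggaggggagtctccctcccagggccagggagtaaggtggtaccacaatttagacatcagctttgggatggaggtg
Krt7: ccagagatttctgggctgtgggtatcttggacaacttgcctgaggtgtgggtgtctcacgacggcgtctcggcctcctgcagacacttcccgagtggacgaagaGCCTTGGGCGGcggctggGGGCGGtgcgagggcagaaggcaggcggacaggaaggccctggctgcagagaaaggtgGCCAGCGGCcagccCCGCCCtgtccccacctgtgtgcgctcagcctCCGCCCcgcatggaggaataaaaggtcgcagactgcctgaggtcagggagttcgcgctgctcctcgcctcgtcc
Krt8: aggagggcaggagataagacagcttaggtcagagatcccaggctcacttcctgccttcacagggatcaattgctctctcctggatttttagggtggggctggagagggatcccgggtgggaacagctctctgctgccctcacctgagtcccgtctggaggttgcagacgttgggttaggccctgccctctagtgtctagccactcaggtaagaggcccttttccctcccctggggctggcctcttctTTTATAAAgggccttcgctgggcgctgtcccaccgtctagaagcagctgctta
Krt7 held 4 GC boxes and 2 AP-2 matches, of which 1 GC box overlaps an AP-2 match, Krt8 held TATAAA in overlapping matches on both strands, and Upk3b held none of the 4 motifs. Across 32841 promoters of the same length, 13.6% held TATAAA, 35.7% GGGCGG, 16.6% GCCNNNGGC and 7.81% TGANTCA. Promoter entries were found for 5 of the 9 genes: Upk3b, Lrrn4, Krt7, Krt8 and Krt18.

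**Figure D3:**
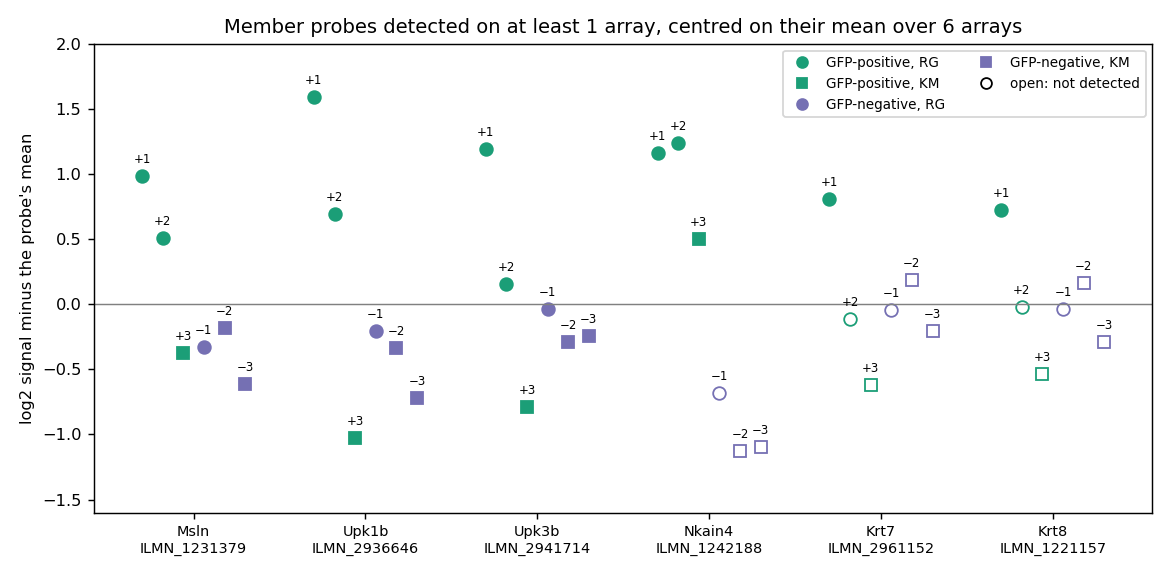
Log2 signal minus the probe's own mean over the 6 arrays, for the member probes detected on at least 1 array (the brighter probe for Upk3b and Krt8); labels give GFP sign and replicate, open symbols were not detected. GFP-positive replicate 1 is on top and GFP-positive replicate 3 at the bottom for Upk1b, Upk3b, Krt7 and Krt8, whereas Nkain4 has its 3 GFP-positive arrays above the GFP-negative ones.

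Set by title letters, the 4 tested genes had higher means on the RG arrays, with no call. Upk1b averaged 9.38 ± 0.90 on the RG and 7.99 ± 0.34 on the KM arrays (log2, SD, n = 3 each), and all RG arrays lay above all KM arrays. The brighter Upk3b probe averaged 9.01 ± 0.66 and 8.13 ± 0.30, again without overlap. Such a split was seen for 2 of the 4 tested genes and for 6.84% of all genes tested. Msln averaged 7.57 ± 0.66 and 6.79 ± 0.22 and Nkain4 6.92 ± 1.09 and 5.77 ± 0.93, both with overlap. The RG arrays hold 2 GFP-positive samples and the KM arrays 1, so the letters were tested beside the group. In that fit the KM arrays were lower by 1.25 ± 0.46 (SE) for Upk1b, 0.84 ± 0.38 for Upk3b, 0.60 ± 0.29 for Msln and 0.56 ± 0.11 for Nkain4. None of the 4 passed (limma adjusted p from 0.366 to 0.621), nor did any gene on the array (0% of 8819). At an unadjusted p under 0.05, 2 of the 4 passed, Upk1b and Nkain4, beside 8.83% of all genes. The Nkain4 means and difference by letters rest in part on background, since no GFP-negative array detected it.

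The GFP difference itself took opposite signs within the letters for the uroplakin-family genes. For Upk1b it was 1.34 ± 0.41 (SE) among the RG arrays and -0.50 ± 0.41 among those titled KM, where GFP-positive replicate 3 read below both GFP-negative arrays. For Upk3b it was 0.71 ± 0.43 and -0.52 ± 0.43, and for Msln 1.07 ± 0.29 and 0.03 ± 0.29. Tested directly, the KM difference minus the RG difference was -1.84 ± 0.58 for Upk1b, -1.23 ± 0.61 for Upk3b, -1.05 ± 0.41 for Msln and -0.27 ± 0.23 for Nkain4. None passed over all probes (limma adjusted p from 0.979 to 0.998; 0% of 8819 genes called), and 1 of the 4, Upk1b, had an unadjusted p under 0.05, as did 4.52% of all genes. Each letter pair has 1 array on 1 side, so 1 sample decides each of these values. For Nkain4 the GFP-negative values are also background.

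**Figure D4:**
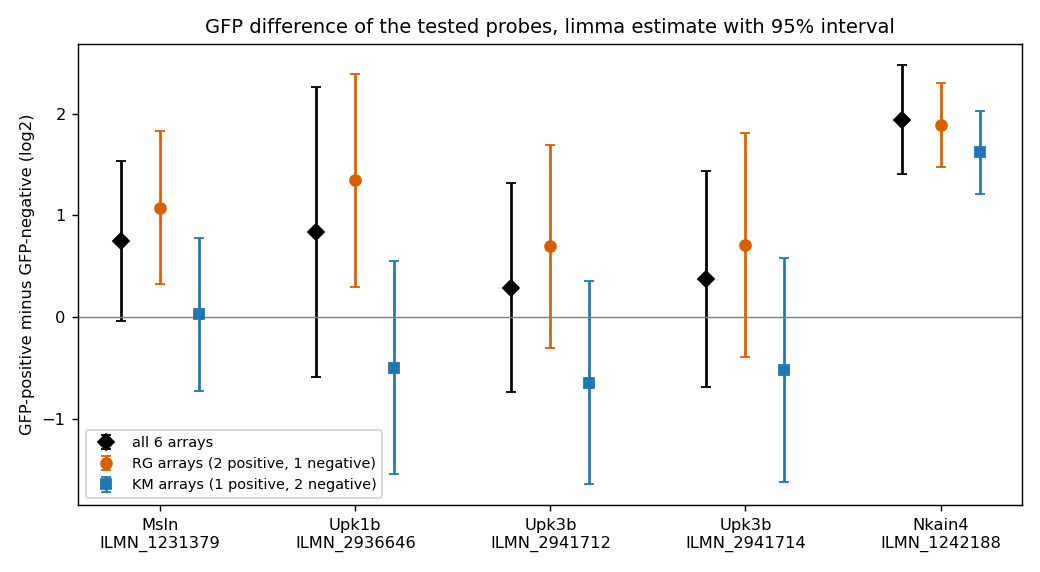
GFP-positive minus GFP-negative difference (log2, limma estimate with 95% interval) of the 5 tested probes over all 6 arrays (black), among RG arrays (orange) and among KM arrays (blue). Nkain4 lies above 0 in all 3, at 1.94, 1.89 and 1.62, each set against background in the GFP-negative arrays. Upk1b moves from 1.34 in RG to -0.50 in KM. The RG and KM estimates each rest on a single array in a group.

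**Figure D5:**
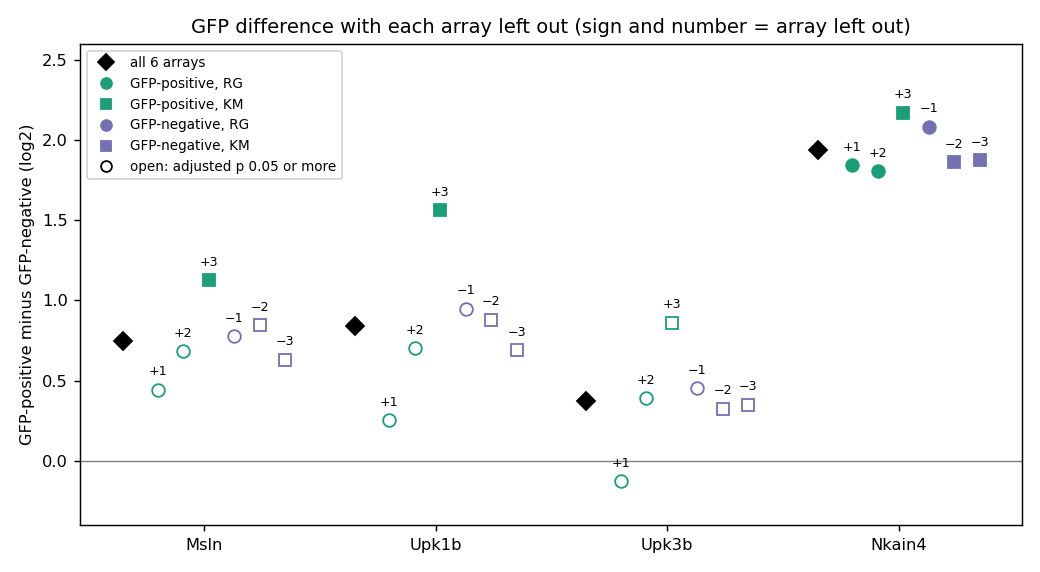
GFP difference (log2) of the 4 tested genes with all arrays (diamonds) and with each array left out (label, colour and shape give the array left out); open symbols have a limma adjusted p of 0.05 or more. Nkain4 stays between 1.81 and 2.17, Upk3b crosses 0 without GFP-positive replicate 1, and Msln and Upk1b pass only without GFP-positive replicate 3.

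Of 15 other mesothelial genes looked at 12 had a probe, 7 were tested, 0 were called higher and 1 lower, with a median of 0.02 (limma), beside the 8.65% and 7.17% of all genes. An unadjusted p under 0.05 was found for 3 of the 7, beside 15.1% higher and 15.7% lower over all genes. These were Ildr2, below, and Dmkn and Cldn15, with differences of 0.58 ± 0.21 and 0.28 ± 0.11 (log2, SE) that did not pass (limma adjusted p = 0.115 and 0.129). Wt1, Muc16 and Prg4 were not analysed here. Ildr2, the lower gene, encodes an immunoglobulin-like membrane protein and read 12.27, 12.12 and 12.04 on the GFP-positive arrays, with 12.81, 12.86 and 12.95 on the GFP-negative arrays, in log2 units, a difference of -0.73 ± 0.11 (SE, limma adjusted p = 0.00605). Gpm6a, a membrane glycoprotein, was detected on the 3 RG arrays only and read 7.95, 7.13 and 5.74 on the GFP-positive and 7.29, 5.86 and 5.05 on the GFP-negative arrays (0.87 ± 0.71, limma adjusted p = 0.452). Slpi, a secreted protease inhibitor, repeated the extremes of the uroplakin-family genes, with 12.03, 11.49 and 10.57 against 11.06, 11.57 and 11.53. It alone of the tested genes in this list did so, and 2.48% of all genes tested had that order. Pdpn, which encodes podoplanin and is also made by stromal cells, differed by -0.0020 ± 0.11 (limma adjusted p = 0.994). Bnc1, Rspo1, Calb2, Gata4 and Lrp2 were not detected on any array.

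Other keratins were mostly not detected. Of 45 further keratin genes with a probe, 39 were not detected on any array and 3 were tested. Of these 0 rose and 1 fell (limma), beside 8.65% and 7.17% of all genes. An unadjusted p under 0.05 was found for 2 of the 3, both lower, beside 15.7% of all genes in that direction. Krt10, a type I keratin of differentiating epidermis, read 9.17, 9.20 and 9.24 on the GFP-positive arrays, with 9.77, 9.64 and 9.74 on the GFP-negative arrays (log2, -0.52 ± 0.10 SE, limma adjusted p = 0.0150). Krt14, the type I keratin of basal epidermis, was detected on GFP-positive replicate 1 alone, at 7.46 against 5.01 to 5.62 on the other arrays. Krt24 was also detected on that array alone, at 6.28. Krt12, by the brighter of its probes, was instead detected on GFP-positive replicate 2 alone, at 6.39, and read 5.50 on GFP-positive replicate 1. The uroplakin genes Upk2, Upk3a and Upk3bl were not detected on any array, and Upk1a, detected on 3 arrays, differed by 0.22 ± 0.28 (limma adjusted p = 0.638).

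Epithelial junction and epididymal genes gave signals in few members. Their calls stand beside 8.65% of all genes called higher and 7.17% lower. Of 17 junction genes with a probe, 11 were not detected on any array, Epcam among them, and 3 were tested, of which 2 rose and 0 fell. Pkp2, the desmosomal plaque protein plakophilin 2, read 9.79, 9.56 and 9.70 against 6.36, 6.53 and 5.35 (log2, 3.60 ± 0.30 SE, limma adjusted p = 0.000582) and was detected on 2 of the 3 GFP-negative arrays. Ppl, which encodes periplakin, rose by 0.70 ± 0.14 (limma adjusted p = 0.0192). The summed normalized signal of the 3 tested junction genes was 2801 to 3032 in GFP-positive and 1327 to 1772 in GFP-negative arrays. Of 17 epididymal epithelium genes with a probe, 15 were not detected on any array, Lcn5, Adam7, Crisp4 and Gpx5 among them. Lcn8, a lipocalin of the epididymis, read 9.58, 9.64 and 9.34 against 5.56, 6.58 and 5.69 (log2, 3.57 ± 0.27, limma adjusted p = 0.000404), and was detected on 1 of the 3 GFP-negative arrays, so that this difference is set in part against background. Cst11, a cystatin of the epididymis and the other gene tested, did not pass, with 6.28, 6.73 and 6.78 against 6.60, 6.88 and 6.41 (-0.03 ± 0.18, limma adjusted p = 0.929). The 2 genes summed to 756.8 to 901.9 in normalized signal against 136.7 to 213.5, a gap that Lcn8 makes up. Pkp2, Ppl and Lcn8 had all GFP-positive arrays above all GFP-negative arrays, as Nkain4 did, and as did 17.7% of all genes tested. Their part in the Nkain4 difference was not tested. Fewer cells of a type and less RNA per cell cannot be told apart in such bulk samples.

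Markers of the sort were read beside these genes. Over all genes tested, 8.65% were called higher and 7.17% lower. All 8 stromal fibroblast genes were detected on all 6 arrays, and 2 rose, Col1a2, a chain of type I collagen, by 0.74 ± 0.10 and Pdgfrb by 0.58 ± 0.11 (log2, SE, limma adjusted p = 0.00394 and 0.0172). Ptprc, which encodes CD45, was detected by none of its 4 probes, and 6 of 9 leukocyte genes with a probe were not detected on any array. Of the 3 tested leukocyte genes 1 was called, Csf1r, the receptor for colony-stimulating factor 1, at 7.41, 7.55 and 7.42 against 6.17, 6.05 and 6.07. Csf1r was detected on the GFP-positive arrays alone and so entered the test through the group where it was high. Against the detection limit it was at least 2.42-fold higher there (limma adjusted p = 0.000375). The count of 1 therefore says nothing of the list. The 3 genes summed to 404 to 509.9 in GFP-positive and 227.3 to 422.1 in GFP-negative arrays. Endothelial genes were detected for 8 of 9, and of 7 tested 0 rose and 1 fell. That was Tek, which encodes the angiopoietin receptor Tie2, at 11.73, 11.59 and 11.40 against 13.28, 13.22 and 13.15 (-1.64 ± 0.12, limma adjusted p = 0.000367). Pecam1, which encodes CD31, was detected on all 6 arrays by 1 of its 3 probes and averaged 7.80 against 8.21 (limma adjusted p = 0.291). The endothelial sum was 4235 to 5109 in GFP-positive and 10480 to 11590 in GFP-negative arrays, a gap that Tek makes up. The median difference of the 7 tested endothelial genes was 0.04 (log2). The Zfp423 probes differed by 0.12 and -0.02 (limma adjusted p = 0.694 and 0.979), so they do not check the GFP labels.

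Of 10 mural genes with a probe 8 were tested, since Rgs5 and Cspg4 were detected on only 1 and 2 arrays. Among the 8, 7 rose, beside 8.65% of all genes called higher. Abcc9 and Kcnj8, 2 of these, were detected on the GFP-positive arrays alone and so entered the test through the group where they were high. Against the detection limit, Abcc9, a subunit of potassium channels, stood at least 4.79-fold higher and Kcnj8, the pore of such channels, at least 4.71-fold higher, with limma adjusted p of 0.000508 and 0.0478. Notch3, a Notch receptor of mural cells, rose by 1.09 ± 0.13, Myh11, smooth muscle myosin, by 1.80 ± 0.22 and Heyl, a Notch target, by 1.35 ± 0.21 (log2, SE, limma adjusted p from 0.00237 to 0.00754). The mural sum was 9244 to 13220 in GFP-positive and 4901 to 6393 in GFP-negative arrays. The part of the mural, endothelial and leukocyte signals in the Nkain4 difference was not tested. On GFP-positive replicate 1, the highest array for Msln, Upk1b, Upk3b, Krt7 and Krt8 (ILMN_1221157), the adipocyte hormone gene Adipoq was also highest, at 8.50 against 5.89 to 7.09 on the other arrays (log2). That array was the highest for 1386 of all 8819 genes tested and for 3 of the 4 tested members. The other 6 of 7 adipocyte genes with a probe were not detected on any array. The part of Adipoq in the signals of GFP-positive replicate 1 was not tested.

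Genes whose values over the 6 arrays were most like the mean of the 4 tested mesothelial genes were sought among 1864 genes with a range of at least 1 (log2). The mean, centred on each gene, was 1.23, 0.65 and -0.42 on the GFP-positive and -0.31, -0.48 and -0.67 on the GFP-negative arrays. It includes Nkain4, which entered the test through the GFP-positive arrays alone and was background on the others. The mean and the likeness to it therefore rest in part on that filter and are a description only. The 6 most alike were Dnmt3l (Pearson r = 0.946), Mrpl46 (0.945), Clba1 (0.941), Rprml (0.940), Zbtb9 (0.939) and H2-DMb2 (0.938), with Spearman's rho from 0.600 to 0.943. Without GFP-positive replicates 1 and 2, the arrays farthest from the median, their r ran from -0.21 to 0.74, so the likeness rests on those arrays. No keratin of the set was tested, so none was matched this way.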

How the data were processed

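Per the labels, the RNA of the 6 samples went through 2 rounds of amplification and biotin labelling. The main deposited table gives, per the file headers, non-normalized probe signals (linear intensity) and a detection p-value for each. GenomeStudio stands in the submitters' processing notes. A further deposited table of intensity values has the same distribution in every column, ranked each array's probes alike (rank correlation 1), and served as an alternative. Of the 45281 probes 34885 carried 1 gene symbol in the platform annotation, 18 several and 10378 none. Normalization used neqc of limma 3.58.1 in R 4.3.3 (normexp with negative controls inferred from detection p-values, offset 16, quantile, log2). The 13727 probes (8819 genes) detected below 0.01 on 3 or more arrays were fitted with lmFit and eBayes, 2-sided, and p-values were adjusted over all of them by Benjamini-Hochberg. The brightest tested probe stood for a gene. Title letters entered as a term beside the group and as an interaction with it. The fit was tested on simulated data. P-values measure the spread between these samples, whose number limits the precision, and cross-binding of probes was not checked. The text names every member probe, up to 4 genes of each other list by p among those called (up to 2 where none was), 4 genes as a check of the sort, and the 6 genes most like the members. Members and lists were chosen with earlier results of these data known. Slpi, Gpm6a, Pdpn, Dmkn, Cldn15, Krt12, Krt14, Krt24, Cst11, Kcnj8, Rgs5, Cspg4 and genes named as not detected were picked after their values were seen. Alternatives were no background correction, the authors' normalized values, median scaling, 3 filters, blocks for letters or replicate number, each array left out, a trended robust prior, array weights, thresholds of 0.01 and 0.1 and averaging a gene's probes.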

Additional observations from a re-analysis of the deposited data

Results flagged for a closer look

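The GFP difference of Upk1b differed between the arrays titled RG and KM by -1.84 (log2, KM minus RG) at an unadjusted limma p of 0.0242, which did not hold after adjustment over all probes (limma adjusted p = 0.979). Krt7 and Krt8 gave a signal outside the test, since each was detected on 1 of 6 arrays, GFP-positive replicate 1, at raw signals of 238.4 and 220.1, and on no GFP-negative array.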

How the results depend on the processing

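The number of members called higher in GFP-positive cells was 1 under 17 of 19 alternatives. It was 0 where detection on all 6 arrays was asked for, which drops Nkain4 from the test, and it ran from 1 to 3 with single arrays left out, reaching 3 without GFP-positive replicate 3, where Msln and Upk1b joined Nkain4. Nkain4 passed under all 18 alternatives in which it was tested, from 0.74 to 2.17 (log2, limma adjusted p from 0.000623 to 0.0141). No GFP-negative array detected Nkain4, so each of these differences is set against background. The passes are no measure of its size and say nothing of the set. No member was called lower, by title letters or by interaction under any alternative run for these. The Upk3b difference ran from -0.13 to 0.86 with single arrays left out and was above 0 under the 18 alternatives other than leaving out GFP-positive replicate 1. Genes past the threshold numbered 1395, 589 at an adjusted p under 0.01, and 719 to 1164 with single arrays left out (719 and 756 on leaving out GFP-negative replicates 2 and 3). With the replicate block 941 genes and 1 member passed. Same-numbered samples had correlations of deviations of -0.07, -0.20 and 0.07, where the first and last pair also share title letters. Differently numbered samples had 0.25 and 0.16 with the same letters and -0.20 to 0.05 with different letters. These values do not settle whether same-numbered samples belong together. With the title letters as a block 1137 genes passed. Signal over background limits Lrrn4 and the keratins to upper bounds on most arrays, and interaction fits leaving out an array were not run.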
